A study of Homo sapiens with 6 samples.

Results

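Integrins, laminins and collagens are the receptors and ligands through which epithelial cells hold on to the sheet of matrix beneath them. They were followed here in KYSE450 cells, a human line established from a squamous cell carcinoma of the esophagus, after knockdown of HMGB2, a DNA-bending protein of chromatin. Genes were taken by name from the deposited expression table: ITGA or ITGB followed by a number, LAMA, LAMB or LAMC followed by a digit, and COL followed by a number, the letter A and a number, with no further suffix. This gave 73 genes of the table's 27887 rows, each of which the table lists by its symbol after the prefix gene-. Of the 73, 30 reached a mean of 1 FPKM (fragments per kilobase of transcript, scaled to library size) in the 6 libraries and are called detected; the other 43 lay below that mean and were not tested.

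The shHMGB2 cells carried the genotype label HMGB2 knockdown and had received an shHMGB2 virus, which delivers a short hairpin RNA (3 libraries). The mock cells were labelled WT and had received a mock virus (3 libraries). All 6 libraries came from the same cell line, grown in RPMI1640 with fetal bovine serum. The sources used here do not say whether the mock virus carried a hairpin or whether more than 1 hairpin was used. The labels mark replicates 2 and 3 of each group as repeat samples and do not say that these grew as cultures of their own; every p-value therefore measures the spread between these libraries only, and that spread may be technical.

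An integrin is an alpha chain paired with a beta chain that spans the cell membrane, binds matrix outside and anchors the cytoskeleton inside. In stratified epithelia, basal cells rest on a basement membrane built from laminin and type IV collagen. They hold to it through hemidesmosomes, in which the ITGA6 and ITGB4 chains and the transmembrane collagen COL17A1 meet a laminin that contains the LAMA3 and LAMB3 chains. The same laminin is bound by the integrin of ITGA3 and ITGB1, and collagen VII ties the basement membrane to the stroma below.

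HMGB2 itself was at 22.1, 24.5 and 27.8 FPKM in the shHMGB2 libraries and at 115.8, 111.4 and 108.6 FPKM in the mock libraries (log2 fold change -2.14, SE 0.084, limma adjusted p = 0.000113). Relative depth, read from the deposited group values, differed by 1.88-fold between the deepest and the shallowest library, both in the shHMGB2 group. Summed FPKM was 740684 to 778579 in shHMGB2 libraries and 745253 to 829437 in mock libraries, and Pearson's r of log2(FPKM + 1) ranged from 0.985 to 0.989 for libraries of the same group and from 0.978 to 0.987 across groups. Markers of the basal squamous epithelium summed to 3949 to 4569 FPKM in shHMGB2 libraries and 4099 to 4176 FPKM in mock libraries, with KRT5, the basal keratin, at 3305 FPKM or more in each library. Of its 9 markers, 8 were detected and ITGB4 was not.

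Knockdown of HMGB2 was accompanied by changes in 8 of the 30 detected genes. Higher in shHMGB2 cells were ITGB8 and ITGA4, the laminin chain LAMA2, and COL4A1 and COL4A2, the pair that forms the common type IV collagen of basement membranes. Among those lower were ITGA3 and ITGB5, chains of receptors for laminin and for vitronectin. The 8 are 26.7% of the detected members, against 6.75% of all 13409 genes tested (905 genes) at the same limma adjusted p of 0.05. The 5 higher members stand beside a background of 3.3% higher among all genes, and the 3 lower members beside a background of 3.45% lower. Without a given library, 2 to 10 members passed, and ITGA3 passed with each of the 6 libraries left out in turn.

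**Figure D1:**
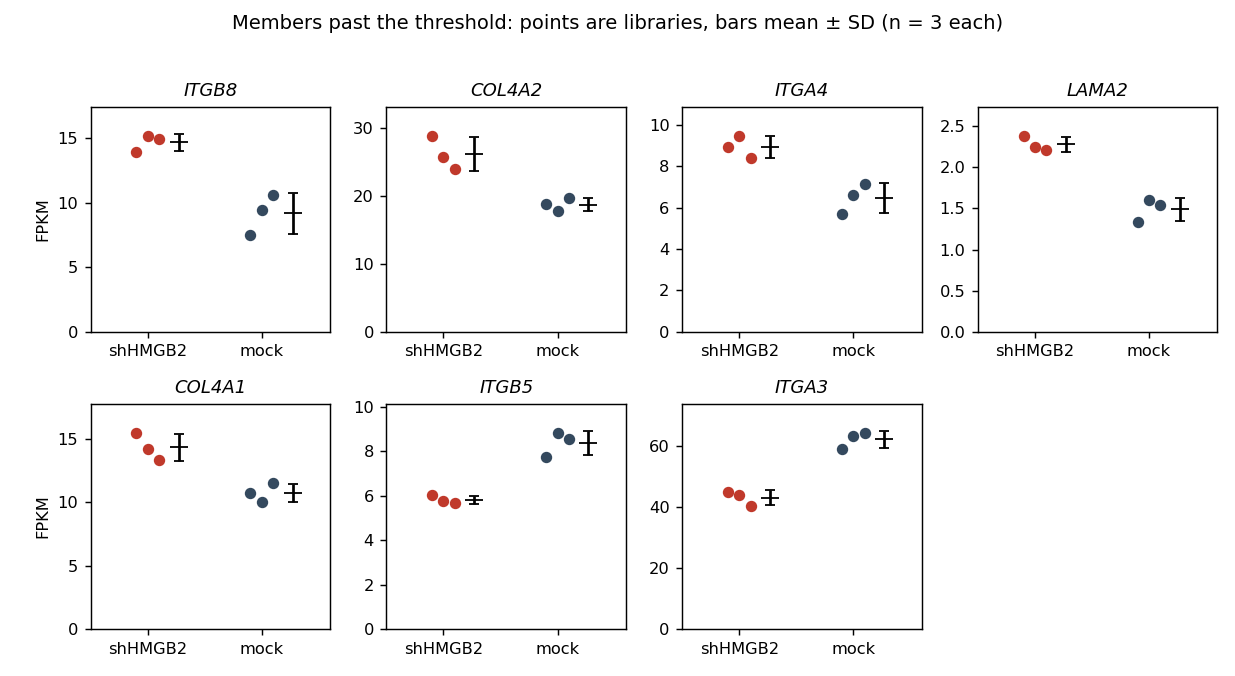
FPKM of members past the threshold, with points for libraries (shHMGB2 left, mock right) and bars for mean ± SD (n = 3 each) on axes that start at 0. In each panel the points of the groups do not overlap; ITGB8, COL4A2, ITGA4, LAMA2 and COL4A1 are higher in shHMGB2 and ITGB5 and ITGA3 lower.

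The members did not move as a block. The median log2 fold change of the 30 was 0.06, against 0.04 over all genes tested, with 17 members above zero and 13 below. Their middle values were spread more widely, from a lower quartile of -0.11 to an upper quartile of 0.30, against -0.10 and 0.17 for all genes. FPKM did not overlap between the groups for 15 of the 30 members (10 higher and 5 lower in shHMGB2), against 35.6% of all genes tested. The summed FPKM of the 73 genes was 822 ± 35.9 in shHMGB2 cells and 832 ± 42.9 in mock cells (SD, n = 3 each).

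**Figure D2:**
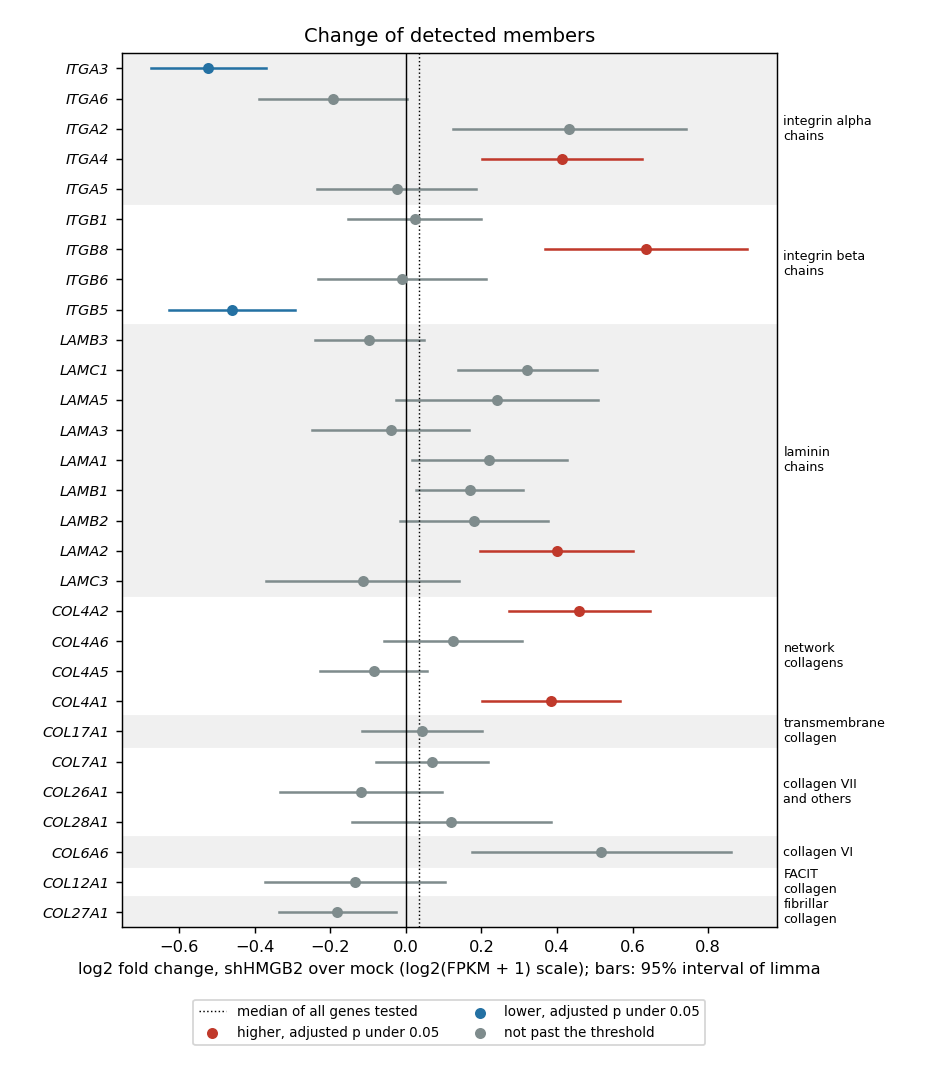
Log2 fold change (shHMGB2 over mock, on the log2(FPKM + 1) scale) of detected members with the 95% interval of limma, grouped by class and ordered by level within a class. Red marks the 5 members past the threshold and higher, blue ITGA3 and ITGB5, past it and lower, grey the 22 that did not pass, and the dotted line the median of all genes tested, 0.04.

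Fold changes rose with transcript length in this comparison. Across 11155 tested genes with a known transcript length, the log2 fold change and the log2 length had a Pearson's r of 0.318 and a Spearman's rho of 0.357, and across the 30 members the values were 0.371 and 0.374; genes are not independent replicates, so these are descriptions. The members' median transcript length was 6308 bases, against 3627 bases for all genes with a length. With the length trend removed from each library, 7 of the 8 calls were kept, LAMA2 had a log2 fold change of 0.24 (limma adjusted p = 0.0635), and 7 members were lower in place of 3. The 7 members that passed with the trend removed and not otherwise in this fit were COL6A6, LAMC1 and ITGA2, higher, and ITGA6, COL27A1, COL12A1 and LAMA3, lower. More genes passed in that setting throughout. Of its 11155 genes, 764 were higher and 952 lower, against 442 and 463 of 13409 in the fit reported. The authors' deposited table gives an adjusted p for 35 members, of which 12 lay under 0.05 (8 higher and 4 lower), or 34.3%, against 15.4% of all genes with such a value. All 8 genes that passed in limma are among these 12, and the other 4 are COL6A6, LAMC1, ITGA2 and ITGA6.

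Integrin alpha chains decide which ligand a receptor binds. Of the 12 numbered alpha chains, 5 were detected, ITGA3, ITGA6, ITGA2, ITGA4 and ITGA5, in order of mean level on the length-corrected FPKM scale. ITGA3, which pairs with ITGB1 as a laminin receptor, lies on chromosome 17 at 50056110 to 50090481 (RefSeq, GRCh38.p14, as are the positions that follow). It had 44.9, 44.0 and 40.2 FPKM in the shHMGB2 libraries, against 59.0, 63.3 and 64.2 FPKM in the mock libraries. Every shHMGB2 library lay below every mock library. ITGA3 fell in shHMGB2 cells (mean 43.0 ± 2.46 against 62.2 ± 2.75 FPKM, SD, n = 3 each), with a log2 fold change of -0.52 and an SE of 0.065 (limma adjusted p = 0.00532).

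ITGA4, on chromosome 2 at 181457205 to 181538940, binds fibronectin and the vascular adhesion molecule VCAM. Its levels were 8.95, 9.47 and 8.40 FPKM in shHMGB2 libraries and 5.69, 6.63 and 7.14 FPKM in mock libraries. The groups did not overlap, and ITGA4 rose in shHMGB2 cells by 0.41 on the log2 scale (SE 0.091, limma adjusted p = 0.0408). This call was kept without mock replicate 3 and was lost without any other library, with a limma adjusted p up to 0.143. ITGA2, the alpha chain of an epithelial collagen receptor, had 13.1, 12.5 and 10.6 FPKM in shHMGB2 libraries and 7.14, 8.69 and 10.4 FPKM in mock libraries. All shHMGB2 values of ITGA2 were the higher ones, the nearest pair being 10.58 and 10.35 FPKM, and it did not pass (log2 fold change 0.43, SE 0.13, limma adjusted p = 0.0911).

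ITGA6, the hemidesmosomal alpha chain, lies on chromosome 2 at 172427336 to 172506459. It was expressed at 43.2, 46.7 and 43.7 FPKM in shHMGB2 libraries and 45.1, 53.7 and 54.8 FPKM in mock libraries. The groups overlapped, since shHMGB2 replicate 2 lay above mock replicate 1, and ITGA6 did not pass (log2 fold change -0.19, 95% interval -0.39 to 0.004, limma adjusted p = 0.186). With the length trend removed its log2 fold change was -0.29 (limma adjusted p = 0.0131). ITGA5, the fibronectin receptor's alpha chain, averaged 6.41 ± 0.712 FPKM in shHMGB2 cells and 6.52 ± 0.393 FPKM in mock cells (SD, n = 3 each; limma adjusted p = 0.880).

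Within the numbered alpha chains, the share of ITGA3 differed between the groups. ITGA3 was 37.9%, 36.6% and 36.7% of the summed FPKM of numbered alpha chains in shHMGB2 libraries, against 47.3%, 45.2% and 44.7% in mock libraries. ITGA6 was 38.4 ± 1.77% and 37.6 ± 1.22% of it (shHMGB2 and mock, SD, n = 3 each). ITGA6 was above ITGA3 in shHMGB2 replicates 2 and 3, and ITGA3 was the higher of the pair in shHMGB2 replicate 1 and in all mock libraries. The sum of numbered alpha chains was 118.4, 120.1 and 109.6 FPKM in shHMGB2 libraries, below 124.7, 140.0 and 143.5 FPKM in mock libraries. ITGAV and ITGAE, named with a letter, are not in this sum or in the shares. ITGAV alone had 16.7, 19.1 and 17.9 FPKM in shHMGB2 libraries and 12.1, 17.6 and 19.3 FPKM in mock libraries. The separation of the sums is therefore stated for the numbered chains only. These shares and the ratios given further on were chosen after their values were seen and were not tested; an exact permutation test of 3 against 3 libraries could not have gone below 0.10.

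Beta chains carry the link to the cytoskeleton. Of 8 numbered beta chains, 4 were detected, ITGB1, ITGB8, ITGB6 and ITGB5, in order of mean FPKM. ITGB1, the shared partner of most of the alpha chains above, had 78.4, 87.2 and 85.3 FPKM in shHMGB2 libraries and 75, 85.3 and 86.8 FPKM in mock libraries. The groups lay in the same range, with a log2 fold change of 0.02 whose 95% interval ran from -0.15 to 0.20 (limma adjusted p = 0.860). ITGB1 made up 74.3 ± 0.717% and 75.9 ± 0.757% of the summed beta-chain FPKM in shHMGB2 and mock cells (SD, n = 3 each).

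ITGB8 and ITGB5 both pair with ITGAV, and they moved in opposite directions. ITGB8, which binds latent TGF-beta, lies on chromosome 7 at 20329766 to 20415754. It had 13.9, 15.2 and 14.9 FPKM in shHMGB2 libraries, against 7.47, 9.45 and 10.6 FPKM in mock libraries. The lowest shHMGB2 library lay above the highest mock library. ITGB8 rose in shHMGB2 cells (log2 fold change 0.64, SE 0.11, limma adjusted p = 0.0212). Its call was lost without shHMGB2 replicate 1, 2 or 3 or mock replicate 2 (limma adjusted p = 0.0700, 0.0825, 0.0777 and 0.0669). An antisense gene, ITGB8-AS1, overlaps its start and was at 2.66, 2.67 and 4.21 FPKM in shHMGB2 libraries and 2.39, 2.23 and 2.16 FPKM in mock libraries. The sources used here do not say whether reads were counted by strand, and without strand the reads of this pair cannot be told apart in the overlap.

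ITGB5, a vitronectin receptor chain on chromosome 3 at 124761948 to 124901418, had 6.01, 5.76 and 5.67 FPKM in shHMGB2 libraries. Its mock libraries were at 7.76, 8.81 and 8.56 FPKM, all above the shHMGB2 values. ITGB5 fell in shHMGB2 cells (log2 fold change -0.46, SE 0.071, limma adjusted p = 0.0130). This call was lost without shHMGB2 replicate 2 or 3 or mock replicate 2 (limma adjusted p = 0.0629, 0.0609 and 0.0633). As a ratio within each library, ITGB8 over ITGB5 was 2.32, 2.63 and 2.63 in shHMGB2 cells and 0.963, 1.07 and 1.24 in mock cells, so ITGB8 led in all shHMGB2 libraries and the chains were near balance in mock cells.

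The other ITGAV partner detected, ITGB6, an epithelial activator of TGF-beta, averaged 7.56 ± 0.336 FPKM in shHMGB2 cells and 7.66 ± 1.00 FPKM in mock cells (SD, n = 3 each; limma adjusted p = 0.956). ITGAV carries a letter instead of a number and was read from a separate list. It had 16.7, 19.1 and 17.9 FPKM in shHMGB2 libraries and 12.1, 17.6 and 19.3 FPKM in mock libraries, with wide overlap (log2 fold change 0.15, limma adjusted p = 0.564). ITGAE, the other letter-named chain with at least 1 FPKM and known from intraepithelial T cells, had 0.92, 1.09 and 0.98 FPKM in shHMGB2 libraries and 1.61, 1.45 and 1.67 FPKM in mock libraries. All shHMGB2 values of ITGAE were lower, and it missed the threshold (log2 fold change -0.37, limma adjusted p = 0.0575); ITGAL, ITGAM and ITGAX each averaged below 1 FPKM.

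ITGB4, the hemidesmosomal partner of ITGA6, was not detected by the rule. Its row held 1.01, 0.77 and 0.70 FPKM in shHMGB2 libraries and 0.89, 0.93 and 0.79 FPKM in mock libraries, with a mean of 109 per library in the authors' depth-normalized signal, which counts reads in steps scaled by depth. The groups overlapped and no test was run. ITGA6 stood 42.7 to 69.4 times higher than ITGB4 across the 6 libraries on the FPKM scale, while COL17A1, the third hemidesmosomal marker, was the most abundant of the 73 genes. ITGB4 lies on chromosome 17 at 75721459 to 75757818, where its end overlaps GALK1, a galactose kinase gene with 10.2 ± 0.420 FPKM in shHMGB2 cells and 11.4 ± 1.01 FPKM in mock cells (SD, n = 3 each). The sources used here do not say how reads in such overlaps were counted.

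The integrins without a detected level were, among alpha chains, ITGA1, ITGA2B, ITGA7, ITGA8, ITGA9, ITGA10 and ITGA11, with means of 0.0017 to 0.317 FPKM. Among beta chains they were ITGB2, ITGB3, ITGB4 and ITGB7. ITGB2 and ITGA2B belong to white blood cells and platelets; all 7 leukocyte and platelet markers in the table averaged under 1 FPKM, with sums of 0.49 to 0.90 FPKM in shHMGB2 libraries and 0.44 to 0.69 FPKM in mock libraries.

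**Figure D3:**
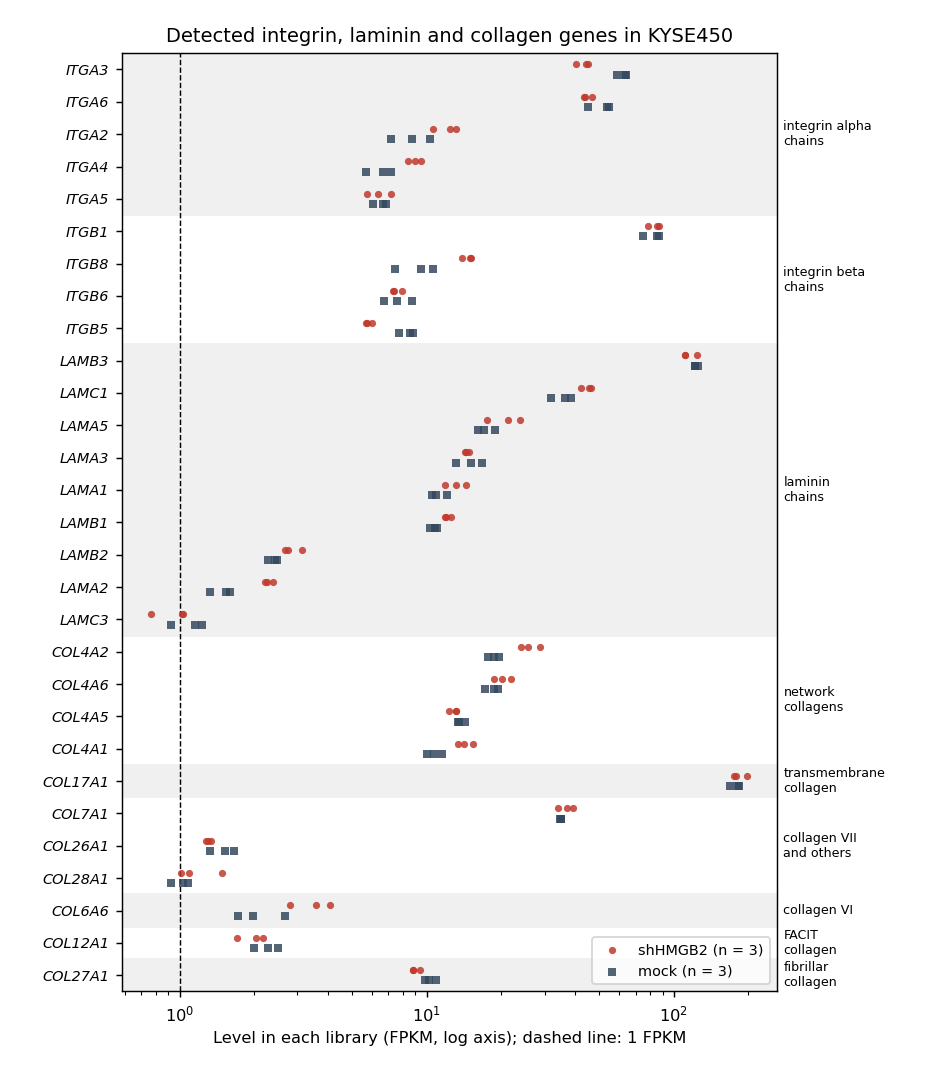
Level of detected members in each library in FPKM on a log axis, by class, with red circles for the 3 shHMGB2 libraries and dark squares for the 3 mock libraries. COL17A1, LAMB3 and ITGB1 lie farthest right, and the dashed line marks the detection limit of 1 FPKM, near which LAMC3 and COL28A1 lie.

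Laminins are trimers of an alpha, a beta and a gamma chain. Of 12 laminin genes, 10 were detected, while LAMA4 and LAMB4 averaged under 0.01 FPKM. LAMB3 was the most abundant, at 124.2, 110.7 and 110.8 FPKM in shHMGB2 libraries and 121.7, 125.2 and 122.2 FPKM in mock libraries. Its groups overlapped through shHMGB2 replicate 1, and it did not pass (log2 fold change -0.10, limma adjusted p = 0.347). LAMA3 likewise overlapped, at 14.8, 14.5 and 14.3 FPKM in shHMGB2 libraries and 13.1, 15.1 and 16.8 FPKM in mock libraries (log2 fold change -0.04, limma adjusted p = 0.798). With the length trend removed, LAMA3 was lower by the test (log2 fold change -0.21, limma adjusted p = 0.0390), and with library weights LAMB3 was (log2 fold change -0.14, limma adjusted p = 0.0480). Library weights called 2436 genes higher and 1758 lower among all genes, against 442 and 463 in the fit reported.

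LAMC1, the gamma chain of most laminins, lies on chromosome 1 at 183023420 to 183145592. Its levels were 46.2, 45.2 and 42.2 FPKM in shHMGB2 libraries and 31.9, 36.4 and 38.2 FPKM in mock libraries. The shHMGB2 libraries were the higher ones without overlap, and the gene missed the threshold narrowly (log2 fold change 0.32, SE 0.079, limma adjusted p = 0.0549); with the length trend removed it was 0.18 (limma adjusted p = 0.0414).

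LAMA2, the alpha chain best known from muscle, rose at a low level. Its values were 2.38, 2.25 and 2.21 FPKM in shHMGB2 libraries and 1.33, 1.6 and 1.54 FPKM in mock libraries, without overlap (log2 fold change 0.40, SE 0.087, limma adjusted p = 0.0397). The gene lies on chromosome 6 at 128883138 to 129516566 and averaged 427 per library in the depth-normalized signal. Its call was lost with any of the 6 libraries left out (limma adjusted p = 0.0639 to 0.130). Smooth muscle markers summed to 6.40 to 7.47 FPKM in shHMGB2 libraries and 4.70 to 6.03 FPKM in mock libraries, nearly all from ACTA2, with the other 4 of the 5 under 1 FPKM; their part in LAMA2 was not tested.

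The remaining laminin chains did not pass, though LAMA1, LAMA5 and LAMB1 did with library weights, the setting that called many more genes throughout. LAMA5, the widespread epithelial alpha chain, had 23.8, 21.3 and 17.5 FPKM in shHMGB2 libraries and 17.1, 16.2 and 18.9 FPKM in mock libraries (log2 fold change 0.24, limma adjusted p = 0.216). LAMA1, typical of embryonic basement membranes, averaged 13.2 ± 1.27 and 11.1 ± 0.841 FPKM in shHMGB2 and mock cells (limma adjusted p = 0.156), and both it and LAMA5 overlapped between groups. LAMB1 averaged 12.1 ± 0.388 and 10.7 ± 0.354 FPKM (limma adjusted p = 0.126), and LAMB2 2.86 ± 0.249 and 2.40 ± 0.0985 FPKM (limma adjusted p = 0.209), again shHMGB2 and mock. Both of these beta chains were higher in every shHMGB2 library than in any mock library. LAMC3 was at the detection limit, at 0.94 ± 0.147 FPKM in shHMGB2 cells and 1.10 ± 0.161 FPKM in mock cells (SD, n = 3 each; limma adjusted p = 0.525).

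AP-1, the transcription factor of FOS and JUN proteins, binds the letters TGANTCA, and its subunit FOSL1 averaged 17.2 ± 0.654 FPKM in shHMGB2 cells and 55.7 ± 2.98 FPKM in mock cells (SD, n = 3 each; limma adjusted p = 0.000113). RefSeq promoter windows of 300 bases on GRCh38.p14 (250 before and 50 after a start) were matched by symbol for 26 of the 30 detected members. The motif, searched on both strands, was in windows of ITGA5, LAMA3 and LAMB3 among these. Counted by window, it was in 4 of the 72 windows of all matched members, detected or not, against 7.71% of all 35116 promoter windows. The upstream parts for LAMA3 and LAMB3 are shown because these chains pair in 1 laminin. The motif sits at -125 and -69 in LAMA3 and at -67 in LAMB3 (in 1 of its 3 windows). Both starts lie inside the gene and are not its outermost start. RefSeq places LAMA3 at 23689453 to 23955066 on chromosome 18 and LAMB3 at 209614870 to 209652425 on chromosome 1. The match of ITGA5, at -6, is not shown. ITGA3 had no window to search, and the windows of ITGB8, ITGB5, ITGA4, LAMA2, COL4A1 and COL4A2 held no match. LAMA3, LAMB3 and ITGA5 did not pass the test in the fit reported, and the matches are letters in a sequence, not measured sites. The stretches are chr18:23872870-23873019 on the plus strand and chr1:209651375-209651524 on the minus strand, both 5′ to 3′ along the gene, with the motif in capitals.
LAMA3: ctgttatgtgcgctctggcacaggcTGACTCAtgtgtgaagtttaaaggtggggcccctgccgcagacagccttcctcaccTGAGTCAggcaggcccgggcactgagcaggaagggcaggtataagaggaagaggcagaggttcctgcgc
LAMB3: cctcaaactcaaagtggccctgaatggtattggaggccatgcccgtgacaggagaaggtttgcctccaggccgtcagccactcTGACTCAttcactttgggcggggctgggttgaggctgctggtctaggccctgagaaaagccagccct

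Type IV collagen is the network collagen of basement membranes, and its genes lie in head-to-head pairs that share the stretch between their starts. COL4A1 and COL4A2 on chromosome 13 encode the common chains, COL4A5 and COL4A6 on chromosome X a pair found under epithelia, and COL4A3 and COL4A4 on chromosome 2 a pair known from kidney and lung. Of the 9 network-forming collagens, 4 were detected, COL4A2, COL4A6, COL4A5 and COL4A1 in order of mean FPKM. The chromosome 13 pair rose in shHMGB2 cells, the chromosome X pair did not pass, and the chromosome 2 pair was not detected.

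COL4A2, at 110307284 to 110513209, had 28.8, 25.7 and 24.0 FPKM in shHMGB2 libraries and 18.7, 17.7 and 19.7 FPKM in mock libraries. Its neighbour COL4A1, at 110148963 to 110307157, had 15.4, 14.2 and 13.4 FPKM in shHMGB2 libraries and 10.7, 10.0 and 11.5 FPKM in mock libraries. In both genes all shHMGB2 libraries lay above all mock libraries. The log2 fold changes were 0.46 for COL4A2 (SE 0.080, limma adjusted p = 0.0190) and 0.38 for COL4A1 (SE 0.078, limma adjusted p = 0.0324). COL4A2 lost its call without shHMGB2 replicate 1 or 2 or mock replicate 2 (limma adjusted p = 0.0586, 0.0705 and 0.0810). COL4A1 kept its call without mock replicate 3 and lost it without any other library (limma adjusted p up to 0.115).

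COL4A2 over COL4A1 was 1.87, 1.81 and 1.80 in shHMGB2 libraries and 1.75, 1.77 and 1.71 in mock libraries, slightly higher in each shHMGB2 library. COL4A5 averaged 12.9 ± 0.483 FPKM in shHMGB2 cells and 13.7 ± 0.463 FPKM in mock cells (SD, n = 3 each; log2 fold change -0.09, limma adjusted p = 0.394). COL4A6 averaged 20.3 ± 1.63 FPKM in shHMGB2 cells and 18.5 ± 1.15 FPKM in mock cells (SD, n = 3 each; log2 fold change 0.13, limma adjusted p = 0.329). The chromosome 13 pair summed to 1.26, 1.201 and 1.203 times the chromosome X pair in shHMGB2 libraries and to 0.960, 0.865 and 0.924 times in mock libraries. The common chains were therefore the larger part in each shHMGB2 library and the smaller part in each mock library.

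**Figure D4:**
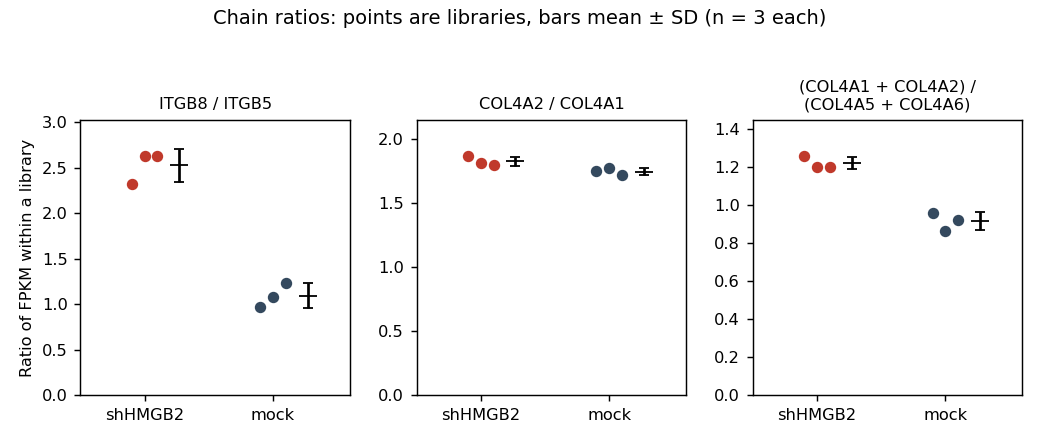
Ratios of FPKM within each library, with points for libraries (shHMGB2 left, mock right) and bars for mean ± SD (n = 3 each). ITGB8 over ITGB5 averages 2.53 in shHMGB2 cells and 1.09 in mock cells, COL4A2 over COL4A1 is 1.71 to 1.87 in all libraries, and the last ratio averages 1.22 in shHMGB2 cells and 0.916 in mock cells.

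COL4A3 and COL4A4 averaged 0.075 and 0.128 FPKM over the 6 libraries. COL8A1, COL8A2 and COL10A1, the other network formers, averaged 0.01, 0.295 and 0.0283 FPKM. Fibroblast markers, of which 8 of 9 averaged under 1 FPKM, summed to 4.08 to 4.55 FPKM in shHMGB2 libraries and 3.07 to 3.81 FPKM in mock libraries. LUM, a matrix proteoglycan, gave most of that sum, and the fibroblast collagens COL1A2 and COL3A1 averaged under 0.01 FPKM. A numbered copy of the COL3A1 row, outside the naming rule and these sums, averaged 0.13 FPKM in shHMGB2 libraries and 0.02 FPKM in mock libraries. Its groups did not overlap, and it was too low to be tested. Endothelial markers, of which 6 of 7 averaged under 1 FPKM, summed to 2.39 to 2.88 FPKM in shHMGB2 libraries and 1.95 to 2.61 FPKM in mock libraries. The fibroblast sums were higher in shHMGB2 libraries without overlap between the groups, and the endothelial sums overlapped. No marker was at 0 in all 6 libraries, which also held for every one of the 27887 rows. The part of such cells in the levels of COL4A1 and COL4A2 was not tested. In bulk libraries fewer cells of a type and less RNA per cell cannot be told apart.

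The stretches between the paired starts are shown because each pair shares them. COL4A1 and COL4A2 are 126 bases apart in RefSeq (chr13:110307158-110307283), COL4A4 and COL4A3 135 bases (chr2:227164489-227164623), and COL4A6 and COL4A5 379 bases, of which the 250 next to COL4A5 are shown (chrX:108439588-108439837). Capitals mark the letters CCAAT on either strand, the CCAAT box bound by the factor NF-Y. All are printed along the plus strand of GRCh38.p14.
COL4A1 to COL4A2: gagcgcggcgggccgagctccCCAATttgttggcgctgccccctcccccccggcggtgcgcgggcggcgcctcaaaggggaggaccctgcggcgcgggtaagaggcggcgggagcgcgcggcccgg
COL4A6 to COL4A5: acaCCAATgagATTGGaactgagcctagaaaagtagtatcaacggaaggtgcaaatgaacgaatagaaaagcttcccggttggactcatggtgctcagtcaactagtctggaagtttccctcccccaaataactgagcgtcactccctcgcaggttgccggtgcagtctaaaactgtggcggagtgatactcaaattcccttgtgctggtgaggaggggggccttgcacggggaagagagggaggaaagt
COL4A4 to COL4A3: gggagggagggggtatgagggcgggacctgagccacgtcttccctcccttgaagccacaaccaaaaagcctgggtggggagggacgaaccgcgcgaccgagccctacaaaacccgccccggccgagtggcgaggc

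The stretch of the chromosome 13 pair holds 1 CCAAT and the one shown of the chromosome X pair holds 2, 1 on each strand. The part of the chromosome X stretch that is not shown holds another, at -118 from the start of COL4A6. These letters were not found in the stretch between COL4A4 and COL4A3. CCAAT occurred in 20 of the 72 windows of all matched members, against 34.6% of all promoter windows. The GC box GGGCGG, bound by SP factors, occurred in 41 of these 72 windows, against 45.0% of all windows.

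COL17A1, the transmembrane collagen of hemidesmosomes on chromosome 10 at 104031286 to 104085880, was the most abundant gene of the 73. It had 197.9, 178.9 and 174.8 FPKM in shHMGB2 libraries and 168.9, 183.7 and 182.6 FPKM in mock libraries. The groups overlapped, and the 95% interval of the log2 fold change, 0.04, ran from -0.12 to 0.20 (limma adjusted p = 0.711). COL7A1, the collagen of anchoring fibrils, had 39.0, 36.8 and 34.1 FPKM in shHMGB2 libraries and 34.9, 34.9 and 34.6 FPKM in mock libraries (log2 fold change 0.07, limma adjusted p = 0.502). Of the epithelial anchoring chains, the collagens COL17A1 and COL7A1 and the laminin chains LAMA3 and LAMB3 did not pass, with the exceptions given above for LAMA3 and LAMB3 in other settings. The other transmembrane collagens, COL13A1, COL23A1 and COL25A1, averaged 0.0017, 0.0767 and 0.313 FPKM.

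COL6A6, an alpha chain of the beaded filament collagen VI, was the collagen nearest to the threshold without passing it. It had 4.05, 3.58 and 2.81 FPKM in shHMGB2 libraries and 1.73, 1.99 and 2.68 FPKM in mock libraries. The groups did not overlap, with shHMGB2 replicate 3 and mock replicate 3 nearest to each other (log2 fold change 0.52, SE 0.15, limma adjusted p = 0.0766). The standard collagen VI chains COL6A1, COL6A2 and COL6A3 averaged 0.875, 0.372 and 0.0017 FPKM, so COL6A6 was the only collagen VI gene of the 4 above 1 FPKM.

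Most collagens of the stroma were low. Of 11 fibrillar collagens, only COL27A1 was detected, at 9.40, 8.82 and 8.77 FPKM in shHMGB2 libraries and 10.2, 9.88 and 10.9 FPKM in mock libraries (log2 fold change -0.18, limma adjusted p = 0.133). COL27A1, a chain of cartilage and developing tissue, was lower in every shHMGB2 library than in any mock library, and it passed with the length trend removed (log2 fold change -0.32, limma adjusted p = 0.0163). COL1A1, the main chain of skin and bone collagen, averaged 0.67 FPKM, and its partner COL1A2 averaged 0.0017 FPKM; the 10 undetected fibrillar genes spanned these means. Of 9 collagens of the FACIT class, which coat fibrils, 8 averaged 0.0017 to 0.317 FPKM and only COL12A1 was detected, at 1.97 ± 0.240 FPKM in shHMGB2 cells and 2.26 ± 0.251 FPKM in mock cells (SD, n = 3 each; log2 fold change -0.13, limma adjusted p = 0.421). With the length trend removed COL12A1 passed as well (log2 fold change -0.31, limma adjusted p = 0.0294). COL26A1 and COL28A1 averaged 1.31 ± 0.0306 and 1.19 ± 0.251 FPKM in shHMGB2 cells, against 1.51 ± 0.166 and 1.01 ± 0.0819 FPKM in mock cells (SD, n = 3 each). Neither passed (limma adjusted p = 0.433 and 0.513).

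The members nearest the detection limit were LAMC3, COL28A1 and COL26A1 just above it, at means of 1.02, 1.10 and 1.41 FPKM. Just below it were COL6A1, ITGB4 and COL1A1, at 0.875, 0.848 and 0.67 FPKM. Of the 43 members below it, 14 had a mean of less than 1 per library in the depth-normalized signal. COL18A1, a basement membrane collagen, averaged 0.05 FPKM in the row that bears its name. A numbered copy of that row, which the naming rule left out, had 5.50, 5.57 and 5.14 FPKM in shHMGB2 libraries and 6.53, 5.41 and 6.51 FPKM in mock libraries (limma adjusted p = 0.277). The files do not say which transcripts each row holds.

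Genes that work beside these receptors were read from lists. The counts in each list stand beside 6.75% of all genes tested that passed in either direction. The lists are short, and none was tested as a set. The counts are those of limma. In the authors' deposited table further list genes had an adjusted p under 0.05, as did 15.4% of all genes with such a value. Among them were CD44 and CD151, lower in shHMGB2, and HSPG2 and AGRN, higher. Of 10 tested hemidesmosome partners and adhesion co-receptors, 1 rose, 2 fell and 7 did not pass; their median log2 fold change was 0.01 against 0.04 for all genes. SDC4, a heparan sulfate co-receptor of integrins, had 43.1, 43.0 and 45.2 FPKM in shHMGB2 libraries and 59.1, 62.2 and 62.6 FPKM in mock libraries. It fell without overlap (log2 fold change -0.48, limma adjusted p = 0.00391) and passed with each library left out in turn. PLEC, the plectin that ties hemidesmosomes to keratin, had 39.2, 35.5 and 32.7 FPKM in shHMGB2 libraries and 44.3, 47.0 and 52.8 FPKM in mock libraries (log2 fold change -0.42, limma adjusted p = 0.0385). DDR1, a collagen-binding receptor kinase, had 5.45, 5.40 and 4.90 FPKM in shHMGB2 libraries and 3.49, 3.84 and 4.10 FPKM in mock libraries (log2 fold change 0.38, limma adjusted p = 0.0383). PLEC kept its call without mock replicate 1 and DDR1 without mock replicate 3, and each lost it without any other library (limma adjusted p up to 0.122 and 0.138).

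Of 32 tested genes of integrin activation and focal adhesions, 1 rose, 3 fell and 28 did not pass; their median log2 fold change was -0.01. ZYX and VASP, which act on actin at focal adhesions, fell by 0.51 and 0.44 on the log2 scale (limma adjusted p = 0.00658 and 0.00592) and passed with each library left out. PXN, the adaptor paxillin, fell by 0.32 (limma adjusted p = 0.0322), and its call was kept without mock replicate 1 and lost without any other library (limma adjusted p up to 0.106). FERMT2, a kindlin that activates beta chains, rose: it had 8.02, 8.85 and 8.10 FPKM in shHMGB2 libraries and 5.59, 5.78 and 6.08 FPKM in mock libraries (log2 fold change 0.45, limma adjusted p = 0.0129). Its call was lost without shHMGB2 replicate 2 or 3 or mock replicate 2 (limma adjusted p = 0.0652, 0.0519 and 0.0588). The talin TLN1 and the kinase PTK2, both central to integrin signalling, did not pass (limma adjusted p = 0.161 and 0.457).

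Of 10 tested other basement membrane and matrix glycoproteins, 1 was higher and 9 did not pass; their median log2 fold change was 0.24. The gene that rose was NPNT, nephronectin, at 6.91, 7.23 and 7.26 FPKM in shHMGB2 libraries and 5.18, 5.38 and 5.29 FPKM in mock libraries (log2 fold change 0.37, limma adjusted p = 0.0177). It lost its call without shHMGB2 replicate 1, 2 or 3 or mock replicate 2 (limma adjusted p = 0.0581, 0.0862, 0.0774 and 0.0694). Its receptor chain ITGA8 averaged 0.0017 FPKM. HSPG2 and AGRN, the basement membrane proteoglycans perlecan and agrin, had log2 fold changes of 0.58 and 0.43 without overlap between groups and did not pass (limma adjusted p = 0.0641 and 0.0566).

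Of 23 tested genes of collagen processing and crosslinking, 1 rose, 1 fell and 21 did not pass; their median log2 fold change was 0.14. PLOD2, a lysyl hydroxylase, had 18.9, 21.1 and 19.1 FPKM in shHMGB2 libraries and 13.4, 14.3 and 16.3 FPKM in mock libraries (log2 fold change 0.40, limma adjusted p = 0.0372). P3H2, a prolyl hydroxylase that acts on type IV collagen, had 5.76, 6.26 and 6.31 FPKM in shHMGB2 libraries and 7.87, 7.80 and 8.06 FPKM in mock libraries (log2 fold change -0.33, limma adjusted p = 0.0315). PLOD2 kept its call without mock replicate 3 and P3H2 without mock replicate 1, and each lost it without any other library (limma adjusted p up to 0.133 and 0.105). Of 8 tested basal squamous markers, 2 fell and 6 did not pass, KRT5 among the latter, and their median log2 fold change was -0.12. KRT14, a basal keratin, was among those that fell. It averaged 92.4 ± 5.30 FPKM in shHMGB2 cells and 135 ± 7.71 FPKM in mock cells (SD, n = 3 each, limma adjusted p = 0.00532).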

How the data were processed

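Expression was read from 6 KYSE450 libraries, 3 shHMGB2 and 3 mock. Per the submitters' processing notes, Bowtie2 2.2.5, RSEM 1.2.12 and hg38 were used; their role and order are not stated there. The authors deposited FPKM per library with 2 decimals, per the file headers. The mean of their deposited group values behaves as a depth-normalized signal, not divided by length. The deposited log2 fold change is the log2 of the ratio of the group values. A group value alone is not a plain mean of reads. ITGA8, at 0 FPKM in each mock library, had a mock group value of 0.0875. The deposited p-value and its adjusted form come from a test of the authors that the sources used here do not name. Read counts per library were not used here. For genes seen in a single library, the mean of both group values came in whole steps (100% within 0.01), which gave relative depths.

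FPKM as log2(FPKM + 1) was fitted with limma 3.58.1 in R 4.3.3 for the 13409 genes whose mean reached 1 FPKM. Group was the only term, the prior variance followed the mean, and p-values were adjusted by Benjamini-Hochberg over all these genes (threshold 0.05, 2-sided). Fold changes on this scale understate those of low genes. Tables and sequences were handled in Python 3.11.15 with pandas 2.3.3. The fit was tested on simulated data. It recovered 92 of 100 genes changed by 1 on the log2 scale and 59 of 100 changed by 0.5, and 4 unchanged genes were called. The changed genes were drawn only from those above about 5 FPKM in mock cells, and noise was drawn for each gene separately. These rates therefore do not cover lower genes such as LAMA2. A change of 0.5 could thus be missed. Of the table's rows, 2138 are numbered copies of another row and were kept apart.

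The members, lists and tests were chosen with earlier results of these data known. A member that the rule takes is not reported here, though counts and lists include it. The genes named are every other member past the threshold, the markers ITGA6, ITGB4 and COL17A1, the detected members of each class with the 3 most abundant in full, the 3 on each side of the detection limit, HMGB2, and the genes past the threshold in each list. Others, such as FOSL1, HSPG2, AGRN, TLN1, PTK2, GALK1 and undetected members, were added after their values were seen. Alternatives covered the pseudocount, filter, scaling, variance model, library weights, a replicate block, each library left out and the authors' table; summed copies and a transcript length trend (longest GENCODE transcript) were added after the data were seen. Positions and promoters are RefSeq's on GRCh38.p14; protein sequences were not used here.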

Additional observations from a re-analysis of the deposited data

How the results depend on the processing

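Among all genes, 442 were higher and 463 lower. The counts of higher and lower genes were 167 and 245 with no filter on low values, 2436 and 1758 with library weights, 764 and 952 with the length trend removed, and 833 and 1254 in the authors' deposited table. With each library left out they ranged from 97 to 449 and from 193 to 446; they fell by more than 1.5 times without any shHMGB2 library or mock replicate 2 and not without mock replicate 1 or 3 (358 and 446, 449 and 424); the cause was not tested. The split was 312 higher and 527 lower with upper-quartile scaling and 309 and 636 with median-of-ratios scaling; both left the members at 5 and 3. Members numbered 0 higher with no filter in limma (12 at an unadjusted p under 0.05), 11 higher and 5 lower with library weights, 7 lower with the length trend removed, and 8 higher in the authors' deposited table. With each library left out, 0 to 7 were higher and 2 to 4 lower. Without shHMGB2 replicate 1 or 2 or mock replicate 2, where 0 were higher, 9, 8 and 9 were higher at an unadjusted p under 0.05. In the fit of all 6 libraries, 3745 of 13409 genes had an unadjusted p under 0.05 in either direction, and 14 of the 30 members. Such counts over all genes were not taken for the other settings, so the unadjusted member counts have no background there.

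Replicate numbers did not pair the libraries (r of deviations -0.0116, -0.0377 and -0.0959 for numbers 1, 2 and 3), and no shHMGB2 library correlated best with its own number. With the replicate block, 138 genes were higher and 234 lower, and of the members 1 was higher (ITGB8) and 2 were lower, ITGA3 among them.

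The sign of some small log2 fold changes turned; none of these was called in the fit reported or where its sign turned, and the cause was not tested. ITGB1 was -0.0298 with upper-quartile scaling, -0.0351 with median-of-ratios scaling, -0.00585 with library weights, -0.0197 with the length trend removed and -0.0301 in the authors' deposited table; with each library left out it was -0.0418 to 0.0685. COL17A1 was -0.0111, -0.0164, -0.0141, -0.0539 and -0.0138 in the same 5 settings, and -0.0112 to 0.0775 with each library left out. COL7A1 was -0.0848 with the length trend removed, LAMA3 0.000632 in the authors' deposited table and ITGB6 0.00271 with library weights. With each library left out, LAMA3 (called with the length trend removed, at -0.206) was -0.127 to 0.0400, ITGB6 -0.0903 to 0.0761, ITGA5 -0.0949 to 0.0432 and ITGAV -0.0418 to 0.274. Other values for single genes kept their sign; of 737 such values, 83 lost the threshold and 31 gained it. Depth limits the genes near 1 FPKM, such as LAMC3 and ITGB4.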
